A study of Mus musculus with 5 samples.

Results

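Transcripts of voltage-gated calcium channel subunits and of the RGK GTPases that inhibit these channels were compared between pancreatic beta cells with and without induced p16INK4a, a cell cycle inhibitor. The set holds 10 of the 23951 genes in the authors' deposited table and was chosen by name, with earlier results of these data known. It takes in the pore genes Cacna1a, Cacna1c, Cacna1d and Cacna1h, the auxiliary subunit genes Cacnb2, Cacnb3 and Cacna2d1, and the RGK genes Gem, Rem2 and Rrad. The p16 group had 3 samples from mice that carry Ins-rtTA, tet-GFP and tet-p16ink4a, and the GFP group had 2 samples from control mice that carry Ins-rtTA and tet-GFP. Both groups therefore express green fluorescent protein and the tetracycline-responsive activator, which is named for the insulin promoter, and both received tetracycline for 10 days before islets were dissociated and fluorescent cells were sorted. The sources used here give no age, sex or strain. The design text counts as many mice as there are samples in each group, but the labels do not tie a sample to a mouse.

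A voltage-gated calcium channel is built around a pore-forming alpha1 subunit, which opens when the membrane depolarizes. A cytosolic beta subunit brings the pore to the cell surface and tunes its gating, and an extracellular alpha2delta subunit raises the number of channels in the membrane. In beta cells, glucose metabolism closes potassium channels, the cell depolarizes, and calcium that enters through L-type and P/Q-type channels triggers the release of insulin granules. RGK proteins are small GTPases of the Ras superfamily that bind beta subunits and reduce the calcium current.

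Values are FPKM, fragments scaled to transcript length and library size, with 1 value per group and gene in the authors' deposited table. They are scaled by length, so levels of different genes can be set side by side, but no spread between samples, SD or depth per library can be given. A gene was counted as changed where its q-value in that table, a p-value adjusted over 13264 tested genes, was below 0.05. Of the 10 members 9 were tested, 2 were higher and 1 was lower in p16 cells, and all 3 calls fell on the RGK genes. Over all tested genes the share called was 5.42%, with 4.32% higher and 1.1% lower. Because the table holds 1 value per group, whether the samples of the groups overlap cannot be seen, and a lower value from fewer cells of a type cannot be told apart from less RNA per cell.

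The RGK genes are related, so their coding sequences were compared. The untranslated parts were left out, and for Gem 888 of 2006 transcript bases are coding. How well reads of one gene can be told from reads of another was not tested. Coding sequences came from the longest protein-coding transcripts of GENCODE release M21 (GRCm38). In their alignment 44.6% of 846 columns without a gap held the same base in Gem, Rem2 and Rrad. The stretch of 60 bases with the most columns alike, 39, lies in exon 5 of each gene, inside the coding sequence, and is shown 5′ to 3′ with the columns alike in all 3 genes in capitals. It is at chr4:11713504-11713563 on the plus strand for Gem, chr14:54479478-54479537 on the plus strand for Rem2 and chr8:104628641-104628700 on the minus strand for Rrad, all in GRCm38.
Gem: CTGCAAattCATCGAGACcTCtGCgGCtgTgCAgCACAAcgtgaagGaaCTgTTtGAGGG
Rem2: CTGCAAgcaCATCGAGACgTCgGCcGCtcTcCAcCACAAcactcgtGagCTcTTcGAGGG
Rrad: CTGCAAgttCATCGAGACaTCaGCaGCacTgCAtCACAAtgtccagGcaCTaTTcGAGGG
Even here bases that differ are scattered through the stretch. Apart from the alignment, runs shared without a mismatch were sought at any position of the coding sequences. The longest was 20 bases for Gem and Rrad, 17 for Rem2 and Rrad and 10 for Gem and Rem2. The run of Rem2 and Rrad lies in exon 2 of Rem2 and exon 4 of Rrad, so it does not join matching positions. Pairwise identity over aligned coding bases was 64.4% for Gem and Rrad, 59.7% for Rem2 and Rrad and 56.3% for Gem and Rem2.

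Gem was the most abundant RGK transcript in both groups and the only member called lower. Its mm9 position is chromosome 4, 11631594 to 11642140, and its product is an RGK protein whose gene is known to be induced quickly by mitogens and other stimuli. Its level was 207.6 FPKM in the GFP group and 46.0 FPKM in the p16 group, a log2 ratio of -2.17 (the authors' deposited table gives q = 0.00245, the smallest value there, shared by 271 genes). Gem thus moved from a level above 97.4% of tested genes in the GFP group to one above 86.8% in the p16 group. Among the 755 tested genes with a mean of at least 100 FPKM, its fall ranked 2, a description of these group values without a test.

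Rem2 and Rrad, the other RGK members, rose. Rem2, an RGK gene known from neurons and beta cells, lies at chromosome 14, 55094937 to 55099271, in mm9. It stood at 4.74 FPKM in GFP cells and 10.3 FPKM in p16 cells, or 2.16-fold higher (the authors' deposited table gives q = 0.0223). Rrad, named Rad for a Ras protein associated with diabetes and known from striated muscle, lies at chromosome 8, 107151966 to 107155221, in mm9. It went from 1.75 to 6.20 FPKM, or 3.55-fold (the authors' deposited table gives q = 0.00597). With a pseudocount of 5 FPKM the log2 ratios of Rem2 and Rrad were 0.65 and 0.73, against 1.11 and 1.83 without one. The call of Rem2 would be lost at a q threshold of 0.01. Rem1, the fourth gene of the family, was listed at 0 in the GFP group and at 0.0173 FPKM in the p16 group and was not tested. None of the 3 tested RGK genes shares its locus with another gene in the table.

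**Figure D1:**
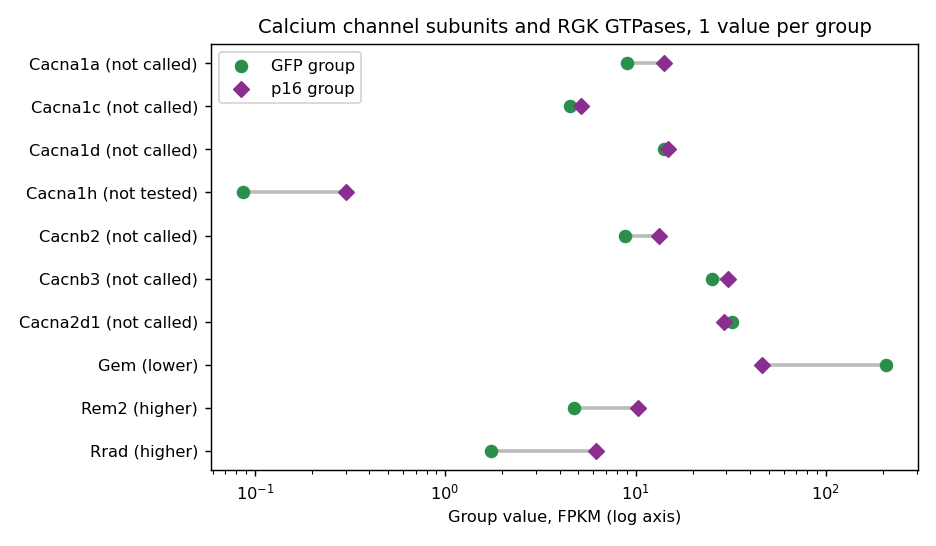
Level of each of the 10 members in FPKM on a log axis, with a circle for the GFP group and a diamond for the p16 group; the call from the deposited q-values stands behind each name. Gem drops from 207.6 to 46.0 FPKM while Rem2 and Rrad move the other way from much lower levels, and the channel subunit pairs lie close together, apart from Cacna1h at the low end.

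In the sum of the RGK genes the fall of Gem was larger than the rises of Rem2 and Rrad together. Summed over Gem, Rem2 and Rrad, the level was 214.1 FPKM in GFP cells and 62.5 FPKM in p16 cells, or 3.43-fold lower. Without Gem, the sum of Rem2 and Rrad was 6.49 FPKM in GFP cells and 16.5 FPKM in p16 cells, or 2.54-fold higher, so the direction of the sum rests on Gem alone. Gem made up 97.0% of the RGK sum in GFP cells and 73.6% in p16 cells. Rem2 made up 2.22% and 16.4%, and Rrad 0.817% and 9.93%. Gem was 43.8 times the level of Rem2 in the GFP group and 4.48 times in the p16 group. These sums have no test.

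None of the 6 tested channel subunit genes passed, while 2 of them, Cacna1a and Cacnb2, had an unadjusted p-value below 0.05 in the Cuffdiff test, as did 17.2% of all tested genes. Cacna1d, which encodes the L-type pore CaV1.3, had the highest level of the 4 pore members and nearly the same value in both groups, 14.1 FPKM in GFP cells and 14.8 FPKM in p16 cells (the authors' deposited table gives q = 0.949). Cacna1c, which encodes the L-type pore CaV1.2, stood at 4.51 and 5.19 FPKM (the authors' deposited table gives q = 0.818). Cacna1a, which encodes the P/Q-type pore CaV2.1, had the widest gap of the 3 tested pore genes, with 8.98 FPKM in the GFP group and 14.1 FPKM in the p16 group. Its log2 ratio was 0.65, and its p-value of 0.0167 gave a q-value of 0.16 in the authors' deposited table. Cacna1h, which encodes a T-type pore that opens near the resting potential, was close to 0, at 0.0865 FPKM in GFP cells and 0.301 FPKM in p16 cells, and the authors did not test it.

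In mm9, Cacna1a lies at chromosome 8, 86939263 to 87164148, Cacna1c at chromosome 6, 118537258 to 119171632, Cacna1d at chromosome 14, 30822186 to 31340242, and Cacna1h at chromosome 17, 25507498 to 25570728. The loci of Cacna1c and Cacna1d are each shared with 2 other genes in the table, so how reads were split there is uncertain. The tested partner of Cacna1c was Dcp1b, at 4.58 and 4.11 FPKM in GFP and p16, close to the level of Cacna1c itself. The tested partner of Cacna1d was Dcp1a, at 6.02 and 6.49 FPKM. The L-type pores are also alike in sequence. Their coding sequences were 70.1% identical over aligned bases, and the longest run without a mismatch was 43 bases, in exon 27 of both genes, at chr6:118654366-118654408 for Cacna1c and chr14:30099154-30099196 for Cacna1d, both on the minus strand of GRCm38. It is shown because reads that fall wholly within it fit both genes; the sources used here give no read length.
Cacna1c and Cacna1d: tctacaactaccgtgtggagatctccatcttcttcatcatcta
For Cacna1a the longest such run was 20 bases with Cacna1c and 23 bases with Cacna1d.

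The mix of pore transcripts was broadly alike in the groups, with a larger part from Cacna1a in p16 cells. Over all 10 pore genes in the table the summed level was 29.4 FPKM in GFP cells and 36.2 FPKM in p16 cells. Cacna1d made up 47.9% of it in GFP cells and 41.0% in p16 cells, Cacna1a 30.5% and 38.9%, and Cacna1c 15.3% and 14.3%. The other 7 pore genes together made up 6.29% and 5.79%, most of it Cacna1b, which encodes the N-type pore and stood at 1.50 and 1.42 FPKM (the authors' deposited table gives q = 0.947). Cacna1d was 1.57 times the level of Cacna1a in GFP cells and 1.05 times in p16 cells. None of the tested pore genes was called, and the shares are not adjusted for the GC content of the transcripts. Whether these shares differ beyond the spread between samples was not tested, since the table holds no value per sample.

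**Figure D2:**
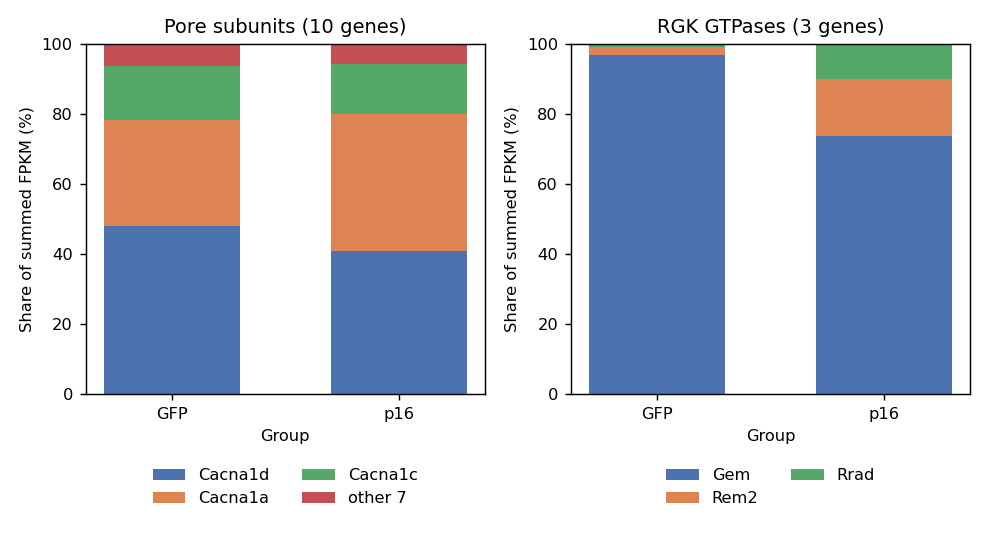
Stacked bars give the share of the summed FPKM in percent held by each pore gene (left, 10 genes, the 7 lowest together) and each RGK gene (right) in the GFP and p16 groups. Gem takes 97.0% of the RGK bar in GFP cells and 73.6% in p16 cells, while Cacna1d, Cacna1a and Cacna1c keep most of the pore bar in both groups.

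Auxiliary subunits did not pass either. Cacnb3, the more abundant beta subunit gene, lies at chromosome 15, 98462759 to 98474967, in mm9 and stood at 25.2 FPKM in GFP cells and 30.5 FPKM in p16 cells (the authors' deposited table gives q = 0.679). Cacnb2, which encodes a beta subunit that partners L-type pores, lies at chromosome 2, 14525933 to 14909535, and had 8.76 and 13.4 FPKM, a log2 ratio of 0.61 (the authors' deposited table gives q = 0.205). Its locus is shared with the predicted gene Gm13315, which was near 0 in both groups. Cacna2d1, which encodes the alpha2delta-1 subunit, lies at chromosome 5, 15440509 to 15880329, and was the only tested channel subunit of the set with a lower value in p16 cells, 31.9 FPKM in GFP cells and 29.0 FPKM in p16 cells (the authors' deposited table gives q = 0.876).

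Cacnb2 and Cacnb3 together had 34.0 FPKM in GFP cells and 43.9 FPKM in p16 cells, which was 1.23 and 1.27 times the sum of the 4 pore members. The RGK sum was 6.30 times this beta subunit sum in the GFP group and 1.42 times in the p16 group. Set against the 4 pore members, the RGK sum was 7.74 times as high in GFP cells and 1.81 times in p16 cells. Without Gem, the RGK sum was 0.235 times the pore sum in GFP cells and 0.478 times in p16 cells. These are ratios of transcript levels and have no test.

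**Figure D3:**
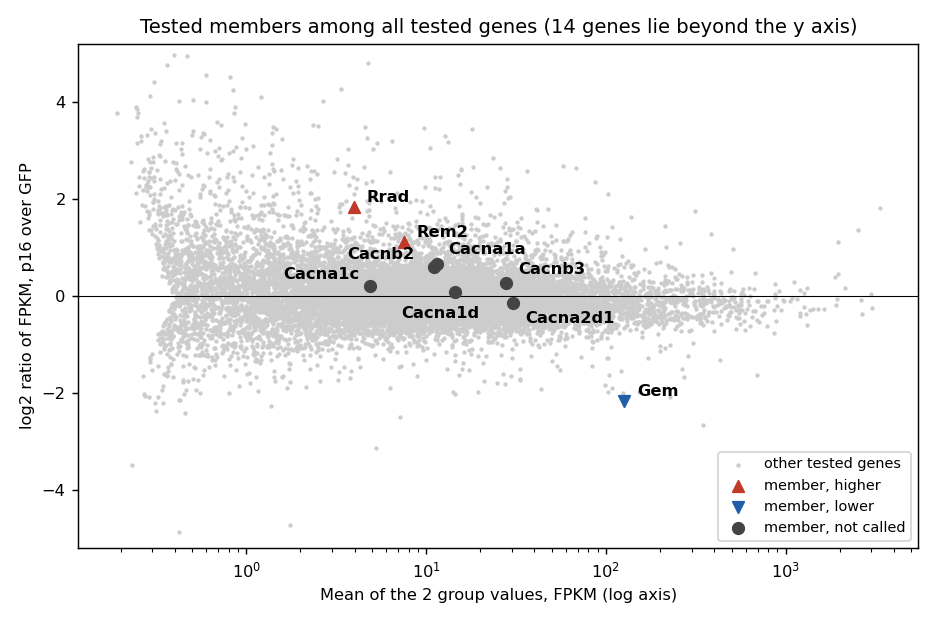
Each grey point is a gene tested by the authors, with its mean FPKM over the groups on a log x axis and its log2 ratio of p16 over GFP on the y axis; 14 genes lie beyond the y axis. Gem sits at the lower edge of the cloud for its level, Rem2 and Rrad in its upper part, and the 6 tested channel subunits between log2 ratios of -0.14 and 0.65.

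In order of level, the GFP group ran from Gem through Cacna2d1, Cacnb3, Cacna1d, Cacna1a, Cacnb2, Rem2, Cacna1c and Rrad to Cacna1h. In the p16 group Gem was still first and Cacna1h last. Cacnb3 stood above Cacna2d1 there, at 30.5 against 29.0 FPKM, and Rrad above Cacna1c, at 6.20 against 5.19 FPKM. The spread of neighbours in this order is unknown, so no difference between genes is claimed. With only 2 group values per gene, no measure of likeness in pattern to other genes was computed.

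The log2 ratio of a gene followed the GC content of its transcript across the table, and the members ran from 40.7% GC for Cacna2d1 to 61.3% for Cacnb3. With tested genes parted into 5 bins of equal size by GC content, the median log2 ratio ran from -0.32 in the lowest bin to 0.31 in the highest. Gem, at 45.8% GC, lies in bin 2, where 66 of 2609 genes were called higher and 21 lower. Rrad, at 58.4%, lies in bin 5, where 217 of 2608 were called higher and 13 lower. Rem2, at 55.6%, lies in bin 4, with 121 of 2609 called higher and 16 lower. The shares over all tested genes were 4.32% higher and 1.1% lower. With the median of its own bin subtracted, the log2 ratio was -1.99 for Gem, 1.02 for Rem2 and 1.52 for Rrad. The same step took Cacna1a from 0.65 to 0.34 and Cacna1d from 0.08 to 0.13, so their log2 ratios lay closer together. It turned Cacnb3 from 0.28 to -0.034 and Cacna2d1 from -0.14 to 0.18, so no direction is read from these 2.

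**Figure D4:**
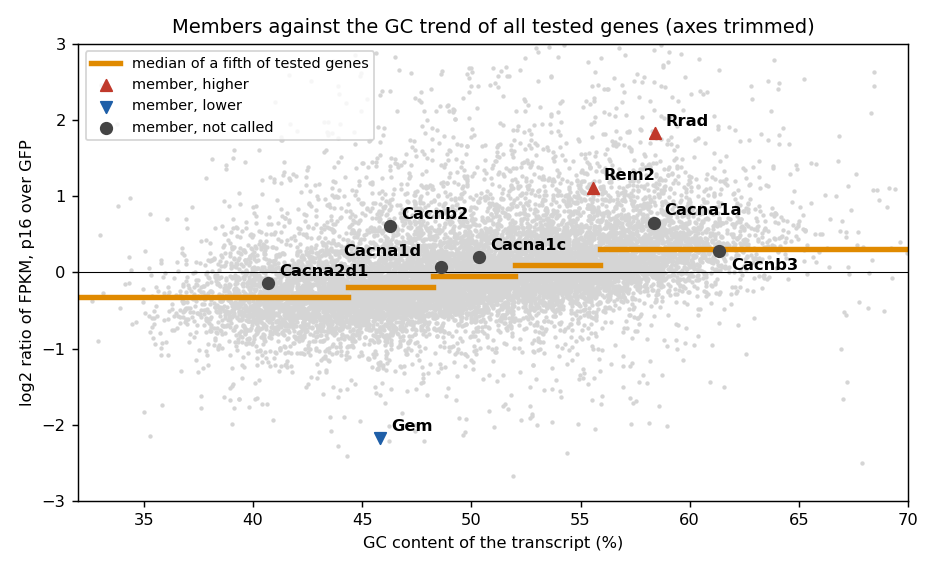
Log2 ratio of FPKM, p16 over GFP, against the GC content of the longest protein-coding transcript in percent, with axes trimmed; grey points are tested genes and orange bars the medians of the 5 bins, from -0.32 to 0.31. Gem lies far below the bar of its bin, Rem2 and Rrad well above theirs, and Cacnb3 on its bar.

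Other subunit genes of the channel family were mostly near 0. Of 19 further subunit genes 5 were tested, of which none passed in the Cuffdiff test and 2, Cacnb4 and Cacna2d2, had an unadjusted p-value below 0.05, against 17.2% of all tested genes. Cacnb1, a beta subunit gene known from skeletal muscle, stood at 2.76 and 3.86 FPKM in GFP and p16 (the authors' deposited table gives q = 0.519). The tested genes Cacnb4, Cacna2d2 and Cacng4 were lower still, with Cacna2d2 at 0.213 and 0.563 FPKM (the authors' deposited table gives q = 0.08). The 14 untested genes, among them Cacna1e of R-type channels and Cacna1g and Cacna1i of T-type channels, had no value above 0.236 FPKM. Cacna1s and Cacng6 were listed at 0 in both groups.

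Genes that move calcium across the membranes of the cell and its stores showed no call among 20 tested of 26 in the Cuffdiff test, and 0 had an unadjusted p-value below 0.05, against 17.2% of all tested genes. Their median log2 ratio was 0.10, against -0.02 over all tested genes. The most abundant were the calcium pumps of the endoplasmic reticulum, Atp2a2 (SERCA2) with 516.1 and 451.5 FPKM and Atp2a3 (SERCA3) with 276.4 and 299.5 FPKM in GFP and p16. Their q-values in the authors' deposited table were 0.831 and 0.911.

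Calcium and calmodulin effectors had 2 calls upward and 2 downward among 30 tested, against 4.32% higher and 1.1% lower over all tested genes. Their median log2 ratio was -0.10. Nfatc2 and Nfatc1, transcription factors that enter the nucleus when calcineurin removes their phosphates, rose, Nfatc2 from 6.23 to 13.6 FPKM and Nfatc1 from 4.71 to 9.07 FPKM (the authors' deposited table gives q = 0.00245 and 0.0303). Ppp3cb, a catalytic subunit of calcineurin, fell from 45.4 to 23.9 FPKM (the authors' deposited table gives q = 0.0381), at a locus shared with 2 other genes. Sik1, a kinase that restrains CREB coactivators and is itself induced through CREB, fell from 20.9 to 8.23 FPKM (the authors' deposited table gives q = 0.00245). Calm2, a calmodulin gene and the most abundant of the list, stood at 419.2 FPKM in GFP cells and 276.9 FPKM in p16 cells and did not pass (the authors' deposited table gives q = 0.201).

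Among genes of membrane excitability 1 of 16 tested passed, against 5.42% of all tested genes, and the median log2 ratio was 0.31. Trpm5, a cation channel opened by calcium, fell from 42.6 to 17.7 FPKM (the authors' deposited table gives q = 0.00245). Abcc8 and Kcnj11, the subunits of the potassium channel that ATP closes, stood at 200.2 and 45.2 FPKM in GFP cells and 212.9 and 60.8 FPKM in p16 cells, and neither passed (the authors' deposited table gives q = 0.937 and 0.425).

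Most early genes that calcium, among other signals, is known to induce were called lower, as Gem was. Of 22 tested genes 14 were called lower and 0 higher from the q-values of the authors' deposited table, with a median log2 ratio of -1.18. Over all tested genes 1.1% were called lower and 4.32% higher. The list was drawn up with earlier results of these data known, so its direction is no independent evidence. Which signal lay behind the lower levels was not tested, and levels before the cells were dissociated and sorted are not given. Fosb, an AP-1 factor and the most abundant of the list, fell from 1051.9 to 341.7 FPKM (the authors' deposited table gives q = 0.00752). Egr2, a zinc finger factor, fell from 3.96 to 1.18 FPKM (the authors' deposited table gives q = 0.00899). Gem, with its log2 ratio of -2.17, stood between Fos at -2.67 and Btg2 at -2.09, and Rasd1, Dusp1 and Egr1 followed at -2.00, -1.99 and -1.99. The 8 genes that missed the threshold were Egr3, Egr4, Arc, Siah2, Per1, Pim1, Maff at -0.08 and Nr4a3 at 0.27.

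Small GTPases of neighbouring families were set beside the RGK genes, and 2 of 24 tested were higher and 1 lower. Over all tested genes 4.32% were called higher and 1.1% lower. The median log2 ratio of this list was -0.08. Rasd2 rose from 0.606 to 2.89 FPKM and Rasl10b from 0.322 to 1.04 FPKM (the authors' deposited table gives q = 0.00245 and 0.0204). Rasd1, also on the list of early genes, fell to 50.04 FPKM (the authors' deposited table gives q = 0.00245), and its locus is shared with another gene. The abundant Rap1b and Rhoa, at 318.3 and 214.5 FPKM in GFP cells and 232.7 and 175.1 FPKM in p16 cells, did not pass (the authors' deposited table gives q = 0.41 and 0.636).

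**Figure D5:**
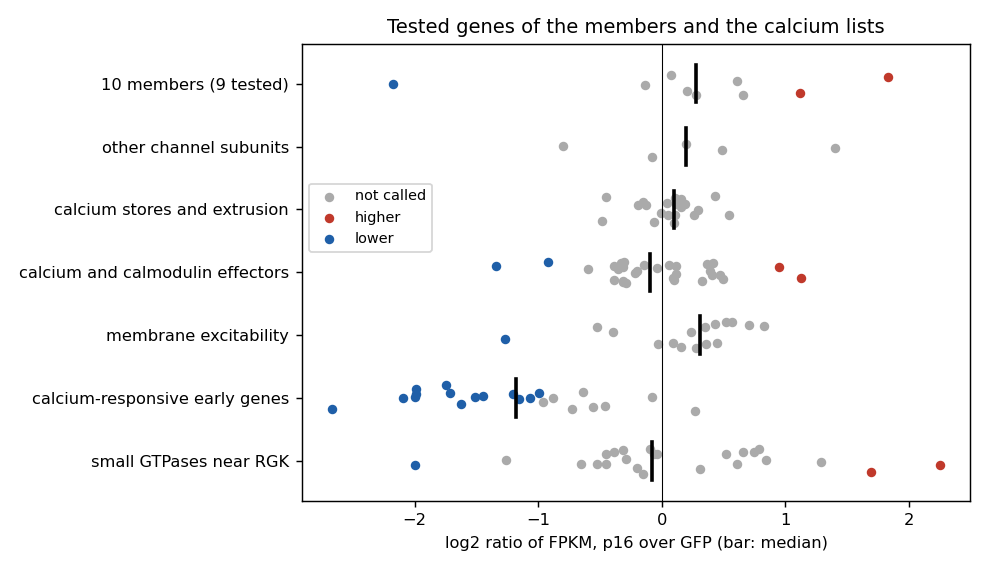
Each point is a tested gene, placed by its log2 ratio of FPKM, p16 over GFP, in the row of its list; red and blue mark genes called higher and lower, and the black bar is the median. Of the 22 early genes 21 lie below 0, with a median of -1.18, while the other medians lie between -0.10 and 0.31.

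Cell type markers were read in the same groups, since the RGK and early genes are expressed by many cells. Of 7 tested beta cell markers 1 was called, downward, against 4.32% higher and 1.1% lower over all tested genes. Beta cell markers were high in both groups. Their summed level was 4742 FPKM in GFP cells and 3605 FPKM in p16 cells, with a median log2 ratio of -0.37, 3 values higher and 4 lower. G6pc2, which was not called, made up most of this sum in both groups. Slc2a2, the glucose transporter GLUT2, fell from 401.7 to 205.2 FPKM (the authors' deposited table gives q = 0.0242). Ucn3 at 366.4 and 226.8 FPKM, Slc30a8 at 648.1 and 405.4 FPKM and G6pc2 at 3012 and 2327 FPKM in GFP and p16 did not pass, nor did the transcription factor genes Pdx1 at 67.6 and 119.6 FPKM, Mafa at 109.3 and 166.0 FPKM and Nkx6-1 at 136.3 and 155.2 FPKM. Ins1, Ins2 and Iapp were listed at 0 with a status for too many fragments, so the summed level of beta cell markers leaves them out. Markers of delta cells were 2 higher of 3 tested, with a summed level of 1297 FPKM in GFP cells and 2782 FPKM in p16 cells, and those of PP cells 2 higher of 2, with 569.5 and 1217 FPKM. Duct markers were 3 higher and 1 lower of 6, with 294.6 and 667.5 FPKM. Most of this sum was Cldn4, at 143.3 and 486.5 FPKM, and Krt7, at 134.0 and 151.5 FPKM and not called. The duct marker called lower was Krt19, at 5.75 and 1.79 FPKM (the authors' deposited table gives q = 0.0105). Alpha cell markers were 1 higher of 5 tested, with 2159 and 2781 FPKM. Stellate or fibroblast markers were 2 higher of 2 tested of 7 listed, with a summed 0.539 and 4.86 FPKM, and immune markers 1 higher of 1 tested of 6 listed, with 0.313 and 2.01 FPKM. Their part in the calls of Gem, Rem2, Rrad and the early genes was not tested.

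Markers of muscle, acinar and Schwann or neuron cells had no call in the Cuffdiff test, among 2, 5 and 5 tested. Of these markers 2, in the muscle and the Schwann or neuron list, had an unadjusted p-value below 0.05, against 17.2% of all tested genes. None of the 4 endothelial markers was tested, so no call was possible there. Markers of striated or cardiac muscle, tissues in which Rrad is known to be abundant, summed to 2.62 FPKM in GFP cells and 4.55 FPKM in p16 cells. Of 6 such genes 2 were tested, Acta1 at 1.80 and 3.61 FPKM and Actc1 at 0.752 and 0.918 FPKM in GFP and p16 (the authors' deposited table gives q = 0.169 and 0.876, with an unadjusted p of 0.0185 for Acta1). Of the genes not tested, Myh6 was listed at 0 in both groups, and Ckm and Tnnt2 had no value above 0.0533 FPKM. Endothelial markers summed to 0.5 and 0.525 FPKM, acinar markers to 7.22 and 6.65 FPKM, and Schwann or neuron markers to 157.8 and 152.8 FPKM. Most of the Schwann or neuron sum was Snap25, at 112.1 and 107.8 FPKM in GFP and p16. Sox10 of the same list stood at 0.0115 and 0.00772 FPKM.

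RefSeq promoters (GRCm38.p6) matched 6 of the 10 members, Cacna1c, Cacna1d, Cacnb2, Cacnb3, Cacna2d1 and Rem2, with 11 annotated starts. In the 250 bases before each start, both strands were searched for TGACGTCA, the cyclic AMP response element, and for its shorter form TGACG, which it contains. The search also took in TATAAA, the AP-1 motif TGANTCA and the CArG box. The shorter form was found before 1 start each of Cacna1c, Cacnb2 and Cacna2d1, and 17.8% of all 32851 promoters hold it. TATAAA was found before 1 start of Cacna1d, and 12.4% of all promoters hold it. The letters of the other motifs were not in these windows.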

How the data were processed

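Total RNA of cells sorted for fluorescence was sequenced in 5 samples, 3 p16 and 2 GFP. Per the submitters' processing notes, TopHat2, Cuffnorm and Cuffdiff were run on the mm9 build. Versions, annotation, scaling and the use of strand were not given in the sources used here. In the deposited table values are FPKM, 1 per group and gene, made by the authors, with p-values and q-values per the file headers. No value per sample was used, so no model was fitted and depth is unknown. Calls are those of the authors, with 0.05 as the limit on q. Benjamini-Hochberg adjustment of the deposited p-values over 13264 tested genes gave the deposited q-values to within 5.23e-07. Gem is 1 of 271 genes at the smallest p-value, 5e-05.

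Log2 ratios of p16 over GFP were recomputed from FPKM without a pseudocount. Starts were read as counted from 0, which fitted 293 of 295 microRNA genes whose length equalled RefSeq under either reading, and 1 was added. GC content came from the longest protein-coding transcript in GENCODE release M21, used for sequence only; 99.0% of tested genes matched. Coding sequences were aligned with MAFFT 7.526. Python 3.11.15, numpy 2.4.6, pandas 2.3.3 and matplotlib 3.10.9 were used, and the adjustment and rescaling steps were tested on simulated data. Members, lists and named genes (all members; per list the called genes, up to 6 by size of ratio, and the 2 most abundant) were chosen with earlier results of these data known; 1 gene that the rule names is not reported here. Cacnb4, Cacna2d2, Cacng4, the early genes not called and untested or marker genes were named after their values were seen. Pseudocounts, scalings, filters and q thresholds were varied.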

Additional observations from a re-analysis of the deposited data

How the results depend on the processing

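The count of 3 called members became 2 at a q threshold of 0.01, where Rem2 was lost, and 2 when the authors' p-values were adjusted again over genes with a mean of at least 5 FPKM, a filter that leaves out Rrad and Cacna1c. It stayed at 3 at a threshold of 0.1 and with a filter at 1 FPKM. Over the 6 calcium lists, counting each gene once, the 21 calls ranged from 15 to 24 under these settings. The 14 lower early genes became 11 at a threshold of 0.01 and 13 without Rasd1, whose locus is shared, 2 settings chosen after seeing the data.

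Of 58 log2 ratios of single members recomputed under other pseudocounts, scalings or GC bins, 56 kept their direction; the calls of tested members cannot change here, since these settings leave the q-values as deposited. With the median of the same GC bin subtracted, Cacnb3 turned to -0.034 and Cacna2d1 to 0.18. The log2 ratio of the untested Cacna1h, 1.80, was 0.26 with a pseudocount of 1 FPKM and 0.06 with one of 5. The log2 ratio of the summed RGK level, -1.78, was 1.34 without Gem, by construction of the sum, and that of the summed pore members, 0.32, was 0.30 over all 10 pore genes. The sums and these 2 alternatives were chosen after seeing the data. Setting the median of tested genes or their upper quartiles equal shifted every ratio by no more than 0.04.

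No paired analysis was possible because the table gives 1 value per group, although GFP and p16 samples share the replicate numbers 2 and 3. For the same reason leaving out each replicate in turn was not run. Depth per library is unknown, so how far differences at low FPKM, such as those of Rrad and Cacna1h, can be read is limited.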
